A study of Mus musculus with 4 samples.

Results

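The genes described here are 34 mouse genes of mitosis and the spindle checkpoint, the machinery with which a cell condenses, attaches and separates its chromosomes and then divides. They were taken by gene symbol, and no measured value entered the rule. The list itself, however, was chosen with earlier results of these data known. The 34 genes are those whose symbol was in the list, out of 22414 genes listed in either of 2 deposited tables, and each of the 34 was listed in both. RNA-seq was made from samples labelled as brain, from C57BL/6 mouse embryos at embryonic day 13, in a study of how Wt1 acts on neural progenitors. Wt1_flfl is the control group, labelled as wild type with both alleles of Wt1 floxed (Wt1fl/fl), that is flanked by recombination sites but not deleted. Wt1_CKO is the conditional knockout of the same gene. Each group had 2 samples, numbered 1 and 2, and each deposited table set the Wt1_CKO sample of one number beside the Wt1_flfl sample of that number, replicate 1 in the first table and replicate 2 in the second. The labels used here name neither the Cre driver, nor the cells it acts in, nor whether a sample was 1 embryo or a pool. The p-values therefore measure only the spread between these samples, which may be technical. Wt1 itself was not analysed here, and the group labels are taken as given.

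Entry into mitosis is driven by the kinase CDK1 bound to cyclin A2 or cyclin B, with help from Polo and Aurora kinases. Kinetochores then tie each chromosome to spindle microtubules, and as long as one stays unattached the spindle checkpoint, built from the Bub and Mad proteins and the kinase TTK, holds back the anaphase-promoting complex and its activator CDC20. In the embryonic brain the dividing cells are mainly radial glia, which divide at the ventricle, and intermediate progenitors, while neurons have left the cycle. In bulk tissue a lower or higher level of a mitotic transcript can come from fewer or more dividing cells or from less or more RNA per cell, and the 2 cannot be told apart.

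Many genes of this kind share 2 short promoter elements, the cell cycle genes homology region (CHR), which recruits the DREAM and MuvB complexes, and the CCAAT box, which binds NF-Y. RefSeq promoters on GRCm38.p6, from 250 bases before to 50 after the start, were found for 29 of the 34 genes, and not for Ccna2, Cdc25c, Aurkb, Tpx2 and Kif20a. Where a gene had several starts, the first listed was used. The CHR letters TTTGAA, read on both strands and so also as TTCAAA, were in 23 of the 29 promoters, or 79.3%, against 18.1% of all 27025 promoters. They lay within 50 bases of the start in 21 of the 29, or 72.4%, against 4.92% of all promoters. A second form, TTTAAA, which is its own reverse complement, was in 9 of the 29, against 13.2% of all promoters. CCAAT, or ATTGG on the other strand, was in 22 of the 29, or 75.9%, against 37.9% of all promoters, and was present at least 2 times in 17 of them, against 12.2% of all. The forms TTTGAA and TTTAAA were counted separately, and a promoter can hold both. A match of letters is a description and not a shown binding site. The stretches below show these elements in 5 genes, 4 whose level was higher in Wt1_CKO in both tables and 1, Cdc20, whose difference turned between the tables. Each is 120 bases long, ends before the gene or its RefSeq start, whichever comes first, and capitals mark the letters TTTGAA and also CCAAT, on either strand.
Cdk1, chr10:69352939-69353058, minus strand: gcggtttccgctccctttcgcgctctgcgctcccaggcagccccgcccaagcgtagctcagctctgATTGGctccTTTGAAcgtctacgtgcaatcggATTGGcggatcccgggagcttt
Top2a, chr11:99024190-99024309, minus strand: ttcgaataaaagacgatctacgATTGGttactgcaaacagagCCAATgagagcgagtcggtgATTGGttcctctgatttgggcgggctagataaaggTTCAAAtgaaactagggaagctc
Kif11, chr19:37376262-37376381, plus strand: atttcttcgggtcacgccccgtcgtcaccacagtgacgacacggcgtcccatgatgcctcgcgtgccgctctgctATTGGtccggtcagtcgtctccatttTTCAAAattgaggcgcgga
Mki67, chr7:135716380-135716499, minus strand: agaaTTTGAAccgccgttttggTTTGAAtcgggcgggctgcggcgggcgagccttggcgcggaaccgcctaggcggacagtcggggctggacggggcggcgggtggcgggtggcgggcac
Cdc20, chr4:118437353-118437472, minus strand: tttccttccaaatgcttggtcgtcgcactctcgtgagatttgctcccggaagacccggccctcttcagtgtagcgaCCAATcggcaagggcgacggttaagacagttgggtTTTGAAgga
In Top2a the CHR letters began 23 bases before the RefSeq start, in Kif11 19 bases and in Cdc20 18 bases before it. Mki67 held them at 116 and 98 bases before the start, and none nearer to it. In Cdk1 the copy shown began 71 bases before the start, and another lies beyond the stretch printed, 15 bases before the start. Top2a had another copy at 179 bases before the start, also outside its printed stretch. Of the 20 genes with a promoter that were higher in Wt1_CKO in both tables, 18 held TTTGAA or TTTAAA, and so did 7 of the 7 that were lower in the first table and higher in the second. Either form was in 27.8% of all promoters.

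The tables held 16219310 to 17704698 counts per library, and the 34 genes had from 563 to 9837 counts each, so that counting error alone gave an SE of 0.0220 to 0.0824 for a log2 difference between 2 libraries. Levels are given as CPM, the count relative to the library total after TMM, a trimmed-mean correction of that total. In the account below a pair of CPM values gives replicate 1 and then replicate 2. Ribosomal RNA of the nuclear genes took 0.458% of the counts of Wt1_flfl replicate 1 and 0.0184% to 0.0451% in the other 3 libraries. Xist, the RNA of the inactive X chromosome of females, had 4 counts in Wt1_CKO replicate 1 and 13086 to 16472 in the others.

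The main comparison asked whether the mitotic genes differed between Wt1_CKO and Wt1_flfl brain. All 34 passed the filter on low counts and were tested among 15933 genes, and none passed a Benjamini-Hochberg adjusted p of 0.05 in edgeR's quasi-likelihood test. The share of all genes called was 0.00628%, a single gene outside the mitosis lists. At an unadjusted p under 0.05 edgeR gave 1 of the 34, Ccnb1, which was higher in Wt1_CKO. Of all genes 1.56% had such a p, 0.596% higher and 0.967% lower in Wt1_CKO. For the 34 genes DESeq2 and limma-voom called 0 after adjustment. The signs of the differences were uneven. The fold change was above 0 for 29 of the 34 genes, against 51.8% of all genes tested. Their median log2 fold change was 0.11, against 0.0066 over all genes tested, and single values ran from -0.08 for Ccnb2 to 0.27 for Kif20b. In 22 of the 34 the TMM-scaled level was higher in Wt1_CKO in both tables, against 27.0% of all genes. In 1, Bub3, it was lower in both, against 25.9%. Both Wt1_CKO libraries lay above both Wt1_flfl libraries for 18 of the 34, where 13.4% of all genes tested did so. Among the 6133 genes at least as abundant as the least abundant of the 34, that share was 12.8%. The 18 include Aurka, Ttk and Kif23, whose nearest libraries of the 2 groups differed by under 1 CPM. Both Wt1_CKO libraries lay below both Wt1_flfl libraries for 1 of the 34, Bub3, against 13.5% of all genes. These genes are transcribed together in dividing cells, so they are not 34 separate pieces of evidence, and the counts are given as a description. The list was also chosen with earlier results of these data known.

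**Figure D1:**
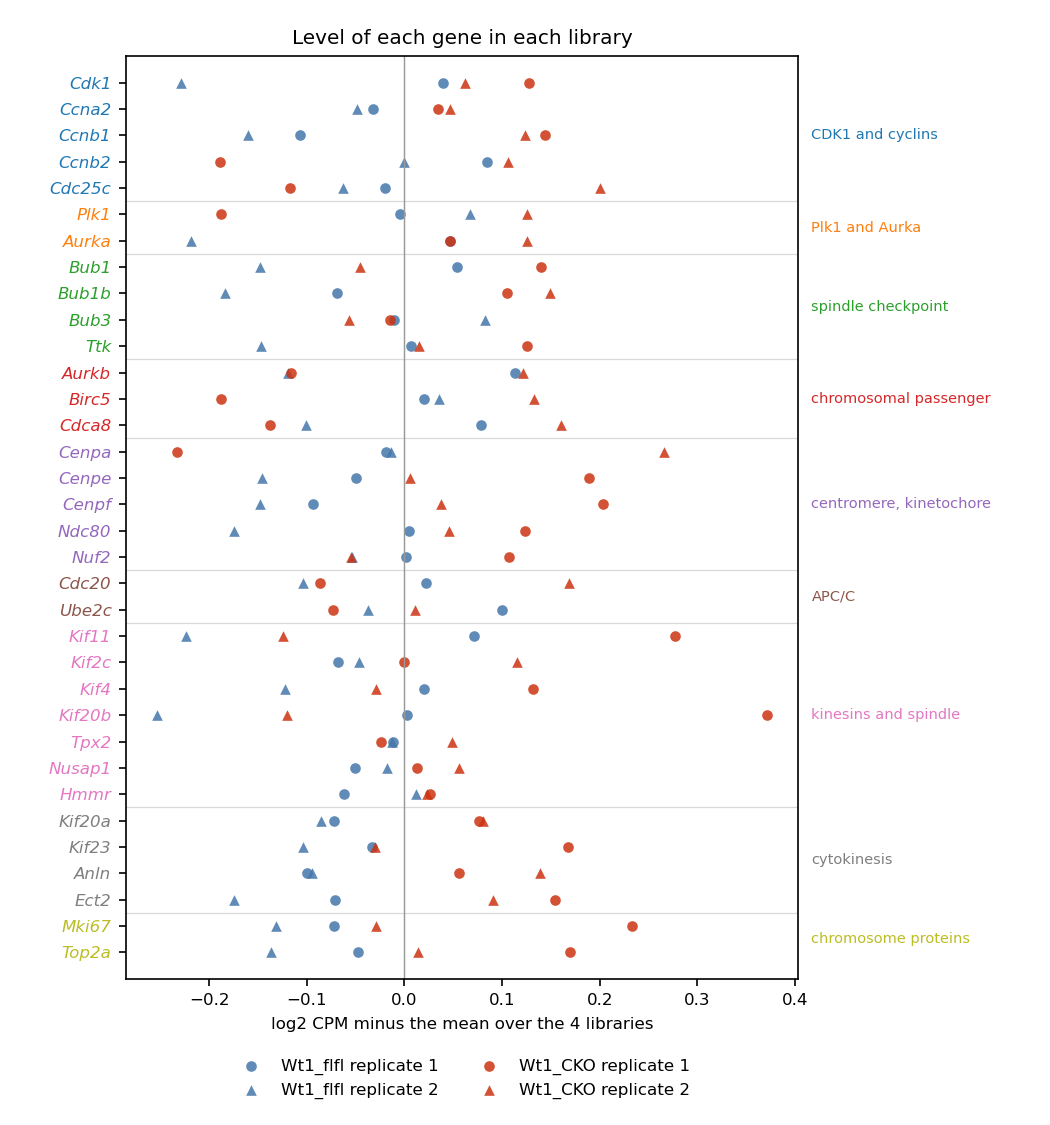
Log2 CPM of each of the 34 genes in each library, minus the gene's mean over the 4 libraries (horizontal axis), with genes grouped by role and coloured by group; blue is Wt1_flfl and red Wt1_CKO, circles are replicate 1 and triangles replicate 2. Red points lie to the right of both blue points for 18 genes. The red circle is far left of the red triangle for the passenger genes, Cenpa, Ccnb2, Cdc25c, Plk1 and Cdc20.

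The 95% intervals of the edgeR fit bound what these 4 libraries could show. They had a median half-width of 0.29 on the log2 scale, wider than any of the 34 fold changes. The upper ends ran from 0.18 for Bub3 to 0.73 for Kif20b and the lower ends from -0.39 for Ccnb2 to 0.02 for Ccnb1. A change by a log2 fold of 1 in either direction lay outside the interval of each of the 34 genes, while a change as large as the median of 0.11 lay inside all 34 and was not detectable with 2 samples per group.

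**Figure D2:**
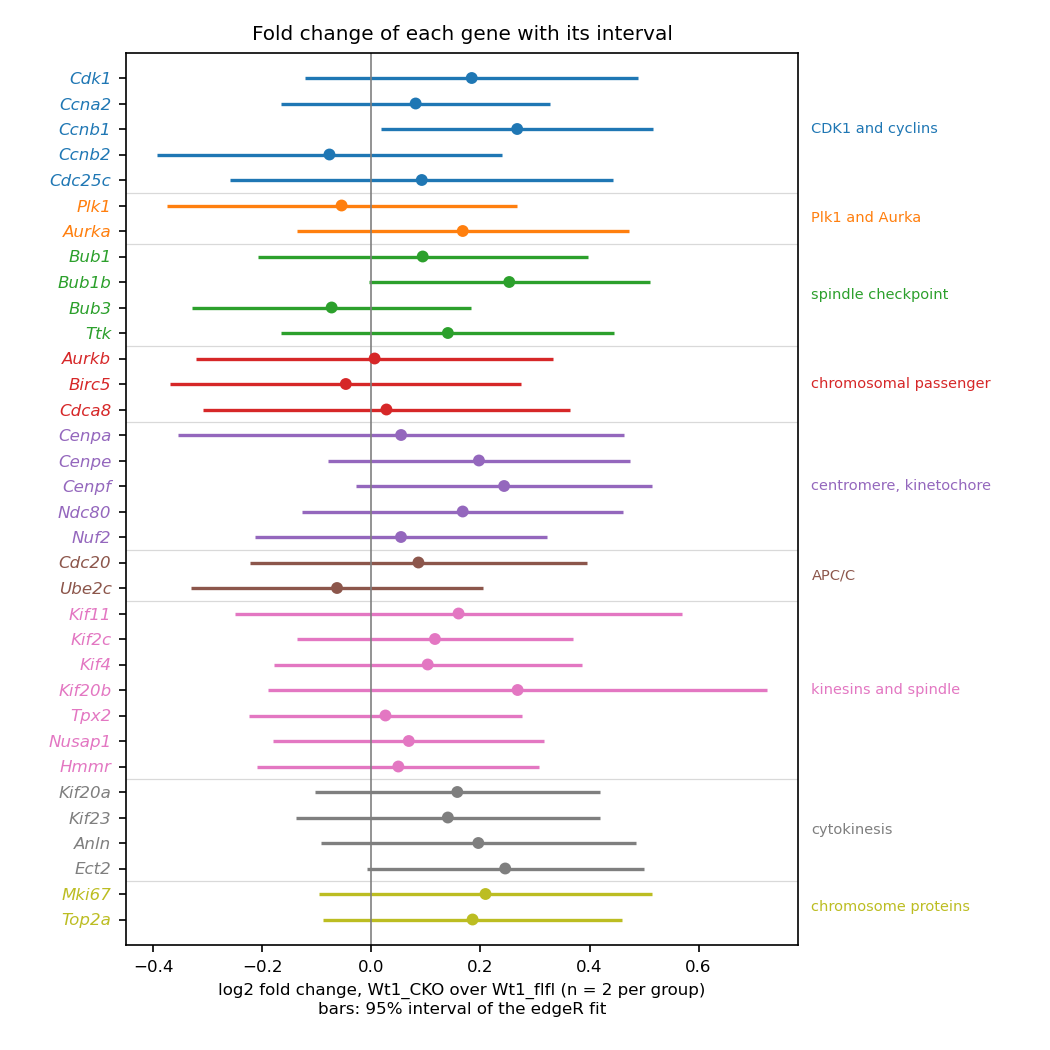
Log2 fold change of Wt1_CKO over Wt1_flfl (points) with the 95% interval of the edgeR fit (bars, n = 2 per group), 34 genes grouped by role. Only the interval of Ccnb1 lies wholly above 0, from 0.02 to 0.52, and none lies wholly below 0.

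Among the genes of mitotic entry, the main mitotic cyclin had the largest difference. Ccnb1 (ENSMUSG00000041431, chromosome 13, 100778650 to 100786570, GRCm38), the cyclin B that carries CDK1 into mitosis, had 173 and 166 CPM in Wt1_flfl and 205 and 202 CPM in Wt1_CKO. Both Wt1_CKO libraries were above both Wt1_flfl libraries, and the values within a group lay close together. The log2 fold change was 0.27, with a 95% interval of 0.02 to 0.52 and an unadjusted edgeR p of 0.0392, and it did not pass after Benjamini-Hochberg adjustment. Cdk1 itself had 134 and 112 CPM in Wt1_flfl and 143 and 136 CPM in Wt1_CKO. Its groups also did not overlap, but the gap was narrow, because Wt1_flfl replicate 1 lay just under Wt1_CKO replicate 2. Ccna2, encoding cyclin A2, which acts from S phase to early mitosis, had 139.8 and 138 CPM in Wt1_flfl and 146 and 148 CPM in Wt1_CKO, a small difference with no overlap. The second B-type cyclin did otherwise. Ccnb2 had 73.5 and 69.3 CPM in Wt1_flfl and 60.8 and 74.6 CPM in Wt1_CKO, so the Wt1_CKO libraries were the lowest and the highest of the 4. The phosphatase gene Cdc25c, whose product removes the inhibitory phosphates from CDK1, had 38.3 and 37.2 CPM in Wt1_flfl and 35.8 and 44.7 CPM in Wt1_CKO, again with the Wt1_CKO libraries at both ends. The log2 fold changes of Cdk1, Ccna2, Ccnb2 and Cdc25c were 0.18, 0.08, -0.08 and 0.09. Those of Ccnb2 and Cdc25c turned with 1 library, to 0.063 for Ccnb2 without Wt1_CKO replicate 1 and to -0.075 for Cdc25c without Wt1_CKO replicate 2. Reads of Ccnb1 and Ccnb2 can be shared with the processed copies Ccnb1-ps and Ccnb2-ps, which had 20 to 32 and 227 to 265 counts per library.

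The 2 mitotic kinases of the centrosome and spindle poles differed from each other in pattern. Plk1, the Polo kinase of mitotic entry, had 100.4 and 106 CPM in Wt1_flfl and 88.5 and 109.9 CPM in Wt1_CKO, with Wt1_CKO replicate 1 lowest and Wt1_CKO replicate 2 highest. Aurka, the Aurora A kinase that matures the spindle poles, had 72.1 and 60.0 CPM in Wt1_flfl and 72.1 and 76.2 CPM in Wt1_CKO. Here Wt1_flfl replicate 2 alone was low and the other 3 libraries were alike. The log2 fold changes were -0.05 for Plk1, which was 0.093 without Wt1_CKO replicate 1, and 0.17 for Aurka, with a 95% interval of -0.14 to 0.47.

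Of the 4 checkpoint genes, 3 were higher in Wt1_CKO in both tables and none passed the test. Bub1b (ENSMUSG00000040084, chromosome 2, 118598211 to 118641591), encoding BUBR1, a part of the complex that inhibits CDC20, had 109.8 and 101 CPM in Wt1_flfl and 124 and 128 CPM in Wt1_CKO. The groups were apart by 0.25 on the log2 scale, with an unadjusted edgeR p of 0.053. Ttk, the kinase also called MPS1 that starts checkpoint signalling, had 39.7 and 35.7 CPM in Wt1_flfl and 43.2 and 40.0 CPM in Wt1_CKO, apart by less than 1 CPM between the nearest libraries. Bub1, the kinase that docks checkpoint proteins at the kinetochore, had 78.3 and 68 CPM in Wt1_flfl and 83.1 and 73.1 CPM in Wt1_CKO, and its groups overlapped. Its log2 fold change of 0.09 was -0.0021 when Wt1_CKO replicate 1 was left out and -0.0037 when Wt1_flfl replicate 2 was. Bub3, which binds both BUB1 and BUBR1, had 163 and 174 CPM in Wt1_flfl and 162 and 158 CPM in Wt1_CKO. It was the only one of the 34 genes with both Wt1_CKO libraries below both Wt1_flfl libraries, with -0.07 on the log2 scale and an interval of -0.33 to 0.18.

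The chromosomal passenger complex corrects faulty attachments and later steers cytokinesis, and its 3 genes in the list differed between the Wt1_CKO libraries more than between the groups. Aurkb, its kinase, had 84 and 71.5 CPM in Wt1_flfl and 71.6 and 84.5 CPM in Wt1_CKO. Birc5, encoding survivin, had 80.3 and 81.2 CPM in Wt1_flfl and 69.5 and 86.8 CPM in Wt1_CKO, and Cdca8, encoding borealin, had 133 and 118 CPM in Wt1_flfl and 115 and 141 CPM in Wt1_CKO. For all 3 the Wt1_CKO libraries were apart, replicate 1 low and replicate 2 high. Summed over the 3 genes the level was 297 and 270.2 CPM in Wt1_flfl and 256 and 312 CPM in Wt1_CKO, and the fold changes of the 3 lay between -0.05 and 0.03. Without Wt1_CKO replicate 2 they were -0.12 for Aurkb and -0.13 for Cdca8, and without Wt1_CKO replicate 1 that of Birc5 was 0.10.

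At the centromere and kinetochore the large structural proteins and the histone differed in pattern, and none of the 5 genes passed the test. Cenpf, a very large protein of the outer kinetochore, had 125 and 121 CPM in Wt1_flfl and 154 and 137 CPM in Wt1_CKO, and Cenpe, the kinesin that brings chromosomes to the spindle equator, had 93 and 87 CPM in Wt1_flfl and 109.8 and 96.6 CPM in Wt1_CKO. Both Wt1_CKO libraries were above both Wt1_flfl libraries for each, with log2 fold changes of 0.24 and 0.20. Ndc80, the microtubule-binding subunit of the NDC80 complex, had 47.3 and 41.7 CPM in Wt1_flfl and 51.3 and 48.6 CPM in Wt1_CKO, without overlap. Its partner Nuf2 had 80.4 and 77.3 CPM in Wt1_flfl and 86.5 and 77.3 CPM in Wt1_CKO, where the replicate 2 libraries were equal to 3 digits. Cenpa, the histone H3 variant that marks the centromere, had 115 and 116 CPM in Wt1_flfl and 99.2 and 140.3 CPM in Wt1_CKO. The 2 Wt1_CKO libraries of Cenpa lay on either side of the Wt1_flfl libraries and differed by 0.50 on the log2 scale. Its fold change of 0.05 was -0.22 without Wt1_CKO replicate 2, and that of Nuf2, 0.05, was -0.03 without Wt1_CKO replicate 1. Ndc80 had 0.17.

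Genes of the anaphase-promoting complex showed no constant direction. Cdc20, its mitotic activator and the target of the checkpoint, had 173 and 159 CPM in Wt1_flfl and 161 and 192 CPM in Wt1_CKO. Ube2c, the ubiquitin-conjugating enzyme that works with the complex on cyclin B, had 225 and 205 CPM in Wt1_flfl and 199.7 and 212 CPM in Wt1_CKO. In both genes Wt1_CKO replicate 1 was below its Wt1_flfl counterpart and Wt1_CKO replicate 2 above it, and the groups overlapped. The log2 fold changes were 0.09 for Cdc20, which was -0.05 without Wt1_CKO replicate 2, and -0.06 for Ube2c, which was 0.0083 without Wt1_flfl replicate 1. The Cdc20 promoter printed above carries both elements, as do those of Cdk1, Top2a and Kif11.

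All 7 genes of the kinesin and spindle group had a fold change above 0, from 0.03 for Tpx2 to 0.27 for Kif20b, and none passed. Kif11, the motor that pushes the spindle poles apart, had 146 and 119 CPM in Wt1_flfl and 168 and 127 CPM in Wt1_CKO, and Kif20b, a kinesin of late mitosis, had 40.8 and 34.1 CPM in Wt1_flfl and 52.7 and 37.5 CPM in Wt1_CKO. Both were highest in Wt1_CKO replicate 1, with the other Wt1_CKO library below Wt1_flfl replicate 1, so the groups overlapped. Kif20b had the largest fold change of the 34 and one of the widest spreads, with an interval of -0.19 to 0.73. Without Wt1_CKO replicate 1 it was -0.00019, and the fold change of Kif11, 0.16, was -0.06. Kif2c, the microtubule depolymerase MCAK, had 81.8 and 83 CPM in Wt1_flfl and 85.8 and 93 CPM in Wt1_CKO, and Nusap1, a microtubule bundling protein, had 136 and 139 CPM in Wt1_flfl and 142 and 147 CPM in Wt1_CKO. Hmmr, a spindle protein, had 54.2 and 57.1 CPM in Wt1_flfl and 57.7 and 57.5 CPM in Wt1_CKO. In these 3 genes the groups did not overlap, by gaps of a few CPM or less, and the log2 fold changes were 0.12, 0.07 and 0.05. Tpx2, the activator of Aurora A on the spindle, had 198 and 198 CPM in Wt1_flfl and 197 and 207 CPM in Wt1_CKO, nearly level in 3 libraries, and its fold change was -0.01 without Wt1_CKO replicate 2. Kif4, a chromosome-bound kinesin on the X chromosome, had 71.1 and 64.4 CPM in Wt1_flfl and 76.8 and 68.7 CPM in Wt1_CKO. Its highest value was in Wt1_CKO replicate 1, the library with almost no Xist, and the part of sex in that value was not tested.

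The 4 genes of the central spindle and cytokinesis had the same order of groups, and none passed the test. Ect2, the exchange factor that activates RhoA for furrowing, had 81.6 and 75.9 CPM in Wt1_flfl and 95.4 and 91.3 CPM in Wt1_CKO. Anln, encoding anillin, a scaffold of the contractile ring, had 35.1 and 35.2 CPM in Wt1_flfl and 39.1 and 41.4 CPM in Wt1_CKO. Kif20a, the kinesin that carries passenger proteins to the midzone, had 47 and 46.5 CPM in Wt1_flfl and 52.1 and 52.2 CPM in Wt1_CKO, and Kif23, a motor subunit of centralspindlin, had 79.1 and 75.3 CPM in Wt1_flfl and 90.9 and 79.3 CPM in Wt1_CKO. Both Wt1_CKO libraries were above both Wt1_flfl libraries in all 4 genes, although for Kif23 the nearest libraries differed by under 1 CPM. The log2 fold changes were 0.25, 0.20, 0.16 and 0.14, and the smallest unadjusted edgeR p was 0.0562, for Ect2. Exons of Kif20a overlap 1271 bases of Cdc23 on the opposite strand, and 7 more of the 34 genes, Ccna2, Cdc20, Cdc25c, Cdca8, Kif4, Nusap1 and Plk1, overlap an opposite gene by 53 to 832 bases. The labels do not say whether strand was kept, so their reads may not all be their own.

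Both chromosome proteins followed the same pattern. Top2a, the topoisomerase that untangles sister chromatids, had 476 and 447 CPM in Wt1_flfl and 553 and 496 CPM in Wt1_CKO, and Mki67, the Ki-67 antigen that coats mitotic chromosomes, had 371 and 356 CPM in Wt1_flfl and 459 and 382 CPM in Wt1_CKO. Neither overlapped between groups, and in both Wt1_CKO replicate 1 was the highest of the 4 libraries. Their log2 fold changes were 0.19 and 0.21, with intervals of -0.09 to 0.46 and -0.10 to 0.52.

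Compared per kilobase of exon, the levels of the 34 genes covered a wide range, with a median of 21.7 CPM per kilobase. The highest were Cdc20 at 91.7 CPM per kilobase, Ube2c at 80.8, Top2a at 54.7 and Plk1 at 46. The lowest were Anln at 4.16 CPM per kilobase, Kif20b at 5.93, Ndc80 at 7.27 and Cdc25c at 7.92. Neighbours in this order, such as Ccnb2 at 45.4 and Ccnb1 at 44.3 CPM per kilobase, lay closer together than the libraries of 1 gene did. The exon lengths are the union over annotated transcripts, so genes with many rarely used exons are set too low. The library changed the order little, since no gene ranged over more than 0.63 on the log2 scale across the 4 libraries.

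**Figure D3:**
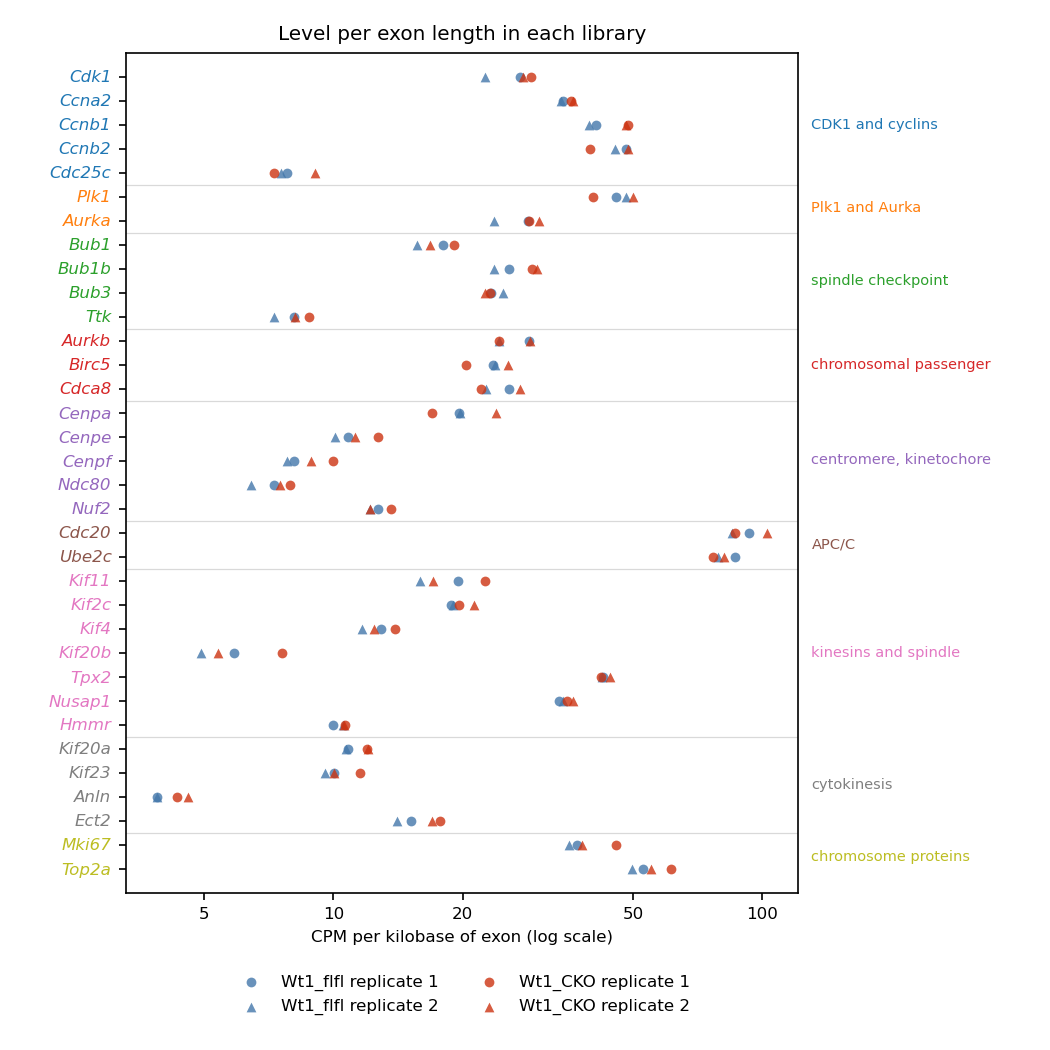
CPM per kilobase of exon in each library on a log axis, 34 genes grouped by role; blue is Wt1_flfl, red Wt1_CKO, circles replicate 1 and triangles replicate 2. Differences between genes, from 4.16 to 91.7 CPM per kilobase, are far wider than those between libraries of a gene.

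The 4 libraries did not share the differences evenly. Wt1_flfl replicate 2 was the lowest library for 20 of the 34 genes, against 26.9% of all genes, Wt1_CKO replicate 1 for 8, Wt1_flfl replicate 1 for 4 and Wt1_CKO replicate 2 for 2. Wt1_CKO replicates 1 and 2 were each the highest for 16, against 28.7% and 21.9% of all genes, and each Wt1_flfl library was the highest for 1. Summed over the 34 genes, the controls stood at 4097 and 3874 CPM and the knockouts at 4351 and 4287 CPM. The median difference between Wt1_CKO and Wt1_flfl was 0.09 in the first table and 0.15 in the second, on the log2 scale. Without Wt1_flfl replicate 1 the median fold change of the 34 genes was 0.17, and without Wt1_flfl replicate 2 it was 0.068, so it depended on which control library was used.

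The 2 tables split the list by gene. After TMM scaling, 11 of the 34 genes were lower in Wt1_CKO in the first table. They were Ccnb2, Cdc25c, Plk1, Aurkb, Birc5, Cdca8, Cenpa, Cdc20, Ube2c, Tpx2 and Bub3. All but Bub3, that is 10 of these 11, were higher in Wt1_CKO in the second table. Across all genes tested, 22.7% were lower in the first table and higher in the second, and 24.5% the other way round, where the list had 1, Nuf2. The largest turns were those of Cenpa, with log2 differences of -0.21 and 0.28 in the first and second table, Cdca8 with -0.22 and 0.26 and Aurkb with -0.23 and 0.24. At the other end Kif20b, with 0.37 and 0.13, and Mki67, with 0.30 and 0.10, were higher in both tables but more so in the first. For Aurka in the first table, Bub3 in the first and Nuf2 in the second the difference was within 0.01 of 0, so their direction there depends on the scaling. The authors' own log2 fold in the first table was above 0 for Tpx2 (0.0097) and Bub3 (0.017). In the second table it was above 0 for Nuf2 (0.0096). The count of genes higher in both tables was 21 to 24 over the scalings and filters tried.

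**Figure D4:**
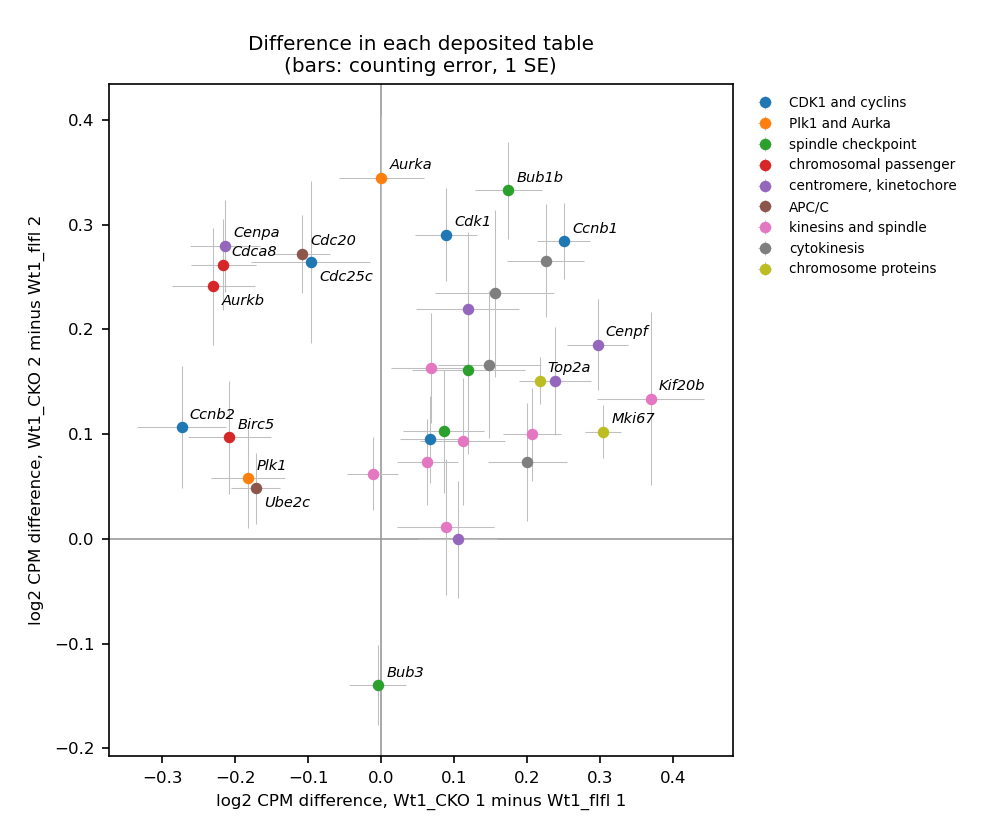
Log2 CPM difference of Wt1_CKO minus Wt1_flfl in the replicate 1 libraries (horizontal) and in the replicate 2 libraries (vertical), 34 genes coloured by role, with bars of 1 SE of counting error. Above 0 on both axes lie 22 genes, 10 lie at the upper left, and Bub3 is the only one below 0 on both.

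The differences in the first table ran in part with gene length. Among the 34 genes the log2 difference of the first table had a Pearson correlation of 0.71 with log2 exon length (Spearman 0.66), and in the second table of -0.12 (Spearman -0.11). These are correlations across 34 genes measured in the same libraries and are given as a description. With the length of the longest transcript in place of exon length, the first value was 0.69. All genes with a length showed a trend in the same sense in the first table, with a Spearman correlation of 0.25 over 15911 genes, and 0.47 over the 6133 genes as abundant as these. Of the mitotic genes, 2 of 2 with 1000 to 2000 exon bases and 4 of 5 with 2000 to 4000 were lower in Wt1_CKO there, as were 5 of 22 with 4000 to 8000 and 0 of 5 above 8000 bases. The 5 in the class of 4000 to 8000 bases were Cdc25c, Tpx2, Cdca8, Cenpa and Bub3. The medians of all genes in those 4 length classes were -0.12, -0.04, 0.03 and 0.11. Between the Wt1_CKO libraries, replicate 2 minus replicate 1, the Pearson correlation with length over the 34 genes was -0.60 (Spearman -0.64), and between the Wt1_flfl libraries it was 0.05. Wt1_flfl replicate 1 had the most ribosomal RNA, and the part of RNA quality in these differences was not tested. With the trend on length removed from each library, a setting added after the data were seen, 23 genes were higher in both tables and the median fold change was 0.11. The correlation in the first table was then 0.48, and all 11 genes that had been lower in Wt1_CKO there were still lower, from -0.01 for Cdc20 to -0.25 for Cenpa.

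**Figure D5:**
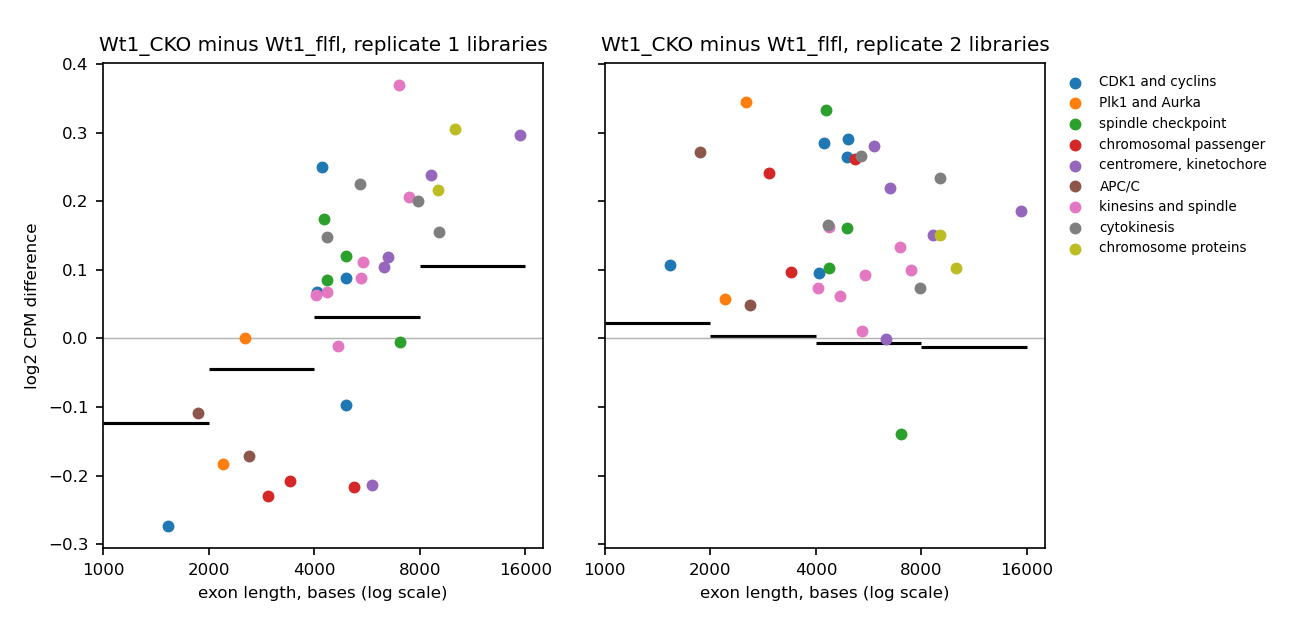
Log2 CPM difference of Wt1_CKO minus Wt1_flfl against exon length on a log axis, in the replicate 1 libraries (left) and the replicate 2 libraries (right); points are the 34 genes coloured by role and black bars are medians of all genes tested in a length class. On the left the points climb from below 0 at short lengths to above 0 at long ones, with a Pearson correlation of 0.71, and on the right they do not, with -0.12.

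The authors' deposited tables give a p for each gene that compares 1 library with 1 library, not the genotypes. Neither of the authors' deposited tables marks any of the 34 genes as significant, where they mark 3.20% and 3.19% of all listed genes. At an adjusted p under 0.05 alone, the authors' deposited table of the replicate 1 libraries has 12 of the 34 genes higher in Wt1_CKO, against 13.8% of all genes, and 7 lower, against 9.50%. The authors' deposited table of the replicate 2 libraries has 20 higher, against 10.2% of all genes, and 1 lower, Bub3, against 9.01%.

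Other genes of mitosis, 136 in 6 groups named by function, were taken for comparison, and 135 were tested. None passed edgeR's adjusted p of 0.05, and 0 had an unadjusted p under 0.05, with 0 called by DESeq2. With the replicate number as a block in the edgeR model, 7.19% of all genes had such an unadjusted p, and so did 7 of the 135. Their median log2 fold change was 0.06, and 53 of 135, or 39.3%, were higher in Wt1_CKO in both tables, while 14 were lower in both. Without Wt1_CKO replicate 2 the median was -0.00087, so it rested on that library. The group of condensin, cohesin and separase genes, which shape and hold chromosomes, also included Pttg1. This group had the highest median, 0.13, with 17 of 17 above 0, but only 9 were higher in Wt1_CKO in both tables. Pttg1 had a log2 fold change of 0.0013, from differences of 2.21 in the first table and -1.83 in the second. Smc2, a condensin subunit, had 107 and 95.7 CPM in Wt1_flfl and 140.5 and 109 CPM in Wt1_CKO, with both Wt1_CKO libraries above both Wt1_flfl libraries, and the same held for Ncapg2. Among other checkpoint and kinetochore genes, with a median of 0.08 over 32 genes, Knl1, the scaffold that BUB1 binds, had 34.6 and 39.5 CPM in Wt1_flfl and 45.9 and 44.9 CPM in Wt1_CKO, and Kntc1 had 45.6 and 42.2 against 54.9 and 49.5 CPM. These too were apart by group. Smc2, Ncapg2, Knl1 and Kntc1 are named because they had the smallest p in their groups, so their separation is not further evidence. Of the 135, 32 (23.7%) had both Wt1_CKO libraries above both Wt1_flfl libraries, against 13.4% of all genes. Another 10 (7.41%) had both below, against 13.5%. The checkpoint gene Mad2l1, whose product binds CDC20, had 87.4 and 79.3 CPM in Wt1_flfl and 87 and 88.1 CPM in Wt1_CKO, with groups that overlapped.

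Other kinesin and spindle genes had a median of 0.11 over 28 genes, 16 of them higher in both tables, and those with the smallest p were Ckap2 and Haus6. The 17 other genes of the anaphase-promoting complex had a median of 0.0049. Of these Cdc27, a core subunit, had a log2 fold change of 0.19, and Ube2s, the enzyme that extends ubiquitin chains, one of -0.19. In the 21 tested regulators of entry and exit the median was 0.04, and the smallest p belonged to the phosphatase subunit Ppp2r2a at -0.15 and the kinase Pbk at 0.18. The group around Foxm1, Mybl2 and the MuvB complex had a median of 0.03 over 20 genes. Foxm1, which drives the G2 and M phase programme, had 132 and 148 CPM in Wt1_flfl and 118 and 165 CPM in Wt1_CKO, and Mybl2, the B-Myb partner of MuvB, had 58 and 61.8 CPM in Wt1_flfl and 52.4 and 66 CPM in Wt1_CKO. Both overlapped between groups, with Wt1_CKO replicate 1 lowest and Wt1_CKO replicate 2 highest, as for Plk1 and Birc5. In the same group Lin37, a MuvB subunit, had a log2 fold change of -0.26 and E2f3 one of 0.27, and neither passed.

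Markers of the cells that divide, and of those that do not, were summed in each library. The sum of 10 progenitor markers was 2793 and 3084 CPM in Wt1_flfl and 2816 and 3246 CPM in Wt1_CKO, and separated by replicate number rather than by group. Relative to that sum the 34 mitotic genes stood at 1.47 and 1.26 in Wt1_flfl and at 1.55 and 1.32 in Wt1_CKO, so that the groups overlapped. Relative to the sum of 10 neuron markers they stood at 0.585 and 0.623 in Wt1_flfl and at 0.642 and 0.738 in Wt1_CKO, without overlap. The 25 S phase genes summed to 2721 and 2501 CPM in Wt1_flfl and 2767 and 2915 CPM in Wt1_CKO, apart by group as the mitotic genes were. Postmitotic neuron markers, 10 genes, summed to 7007 and 6221 CPM in Wt1_flfl and 6775 and 5807 CPM in Wt1_CKO. The neuron sum overlapped between groups and, like the progenitor sum, separated by replicate number. Tubb3, a tubulin of neurons, had 2378 and 2205 CPM in Wt1_flfl and 1985 and 2052 CPM in Wt1_CKO, below in both Wt1_CKO libraries. Of the 10 neuron genes, 6 were lower and 3 higher in Wt1_CKO in both tables. The progenitor factor Sox2 had 307 and 348 against 260.1 and 327 CPM, with overlap. Intermediate progenitors express Eomes, which had 153 and 114 against 180.0 and 141 CPM, also with overlap. Eomes had the largest fold change of the 6 markers of these cells, of which 2 were higher and 1 lower in both tables. Those 6 summed to 753 and 660.5 CPM in Wt1_flfl and 770 and 709 CPM in Wt1_CKO, with overlap. Pax6, of dorsal progenitors, had 123 and 116 CPM in Wt1_flfl and 132 and 126 CPM in Wt1_CKO, higher in both Wt1_CKO libraries. Of the 10 progenitor markers, 4 were higher and 1 lower in Wt1_CKO in both tables.

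Markers of other tissues also varied between the libraries. Red blood cell genes, 10 in number, summed to 972 and 1861 CPM in Wt1_flfl and 916 and 1807 CPM in Wt1_CKO. Meningeal and mesenchymal genes summed to 66.5 CPM in Wt1_flfl replicate 2 and to 36.9 to 38.4 CPM in the other 3 libraries. Choroid plexus genes summed to 1.68 and 18.6 CPM in Wt1_flfl and 46.2 and 3.31 CPM in Wt1_CKO. Endothelial genes lay at 101 to 121 CPM and microglial genes at 25.1 to 26.1 CPM over the 4 libraries. Every marker of these lists had at least 1 count in each library, and their part in the mitotic values was not tested. The library with the lowest mitotic sum, Wt1_flfl replicate 2, was also the one with the most mesenchymal and endothelial RNA.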

How the data were processed

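mRNA selected with oligo(dT) was fragmented and copied from random primers, per the labels' protocols. HTSeq 0.6.0, TopHat2 2.0.12, Bowtie2 2.2.3 and mm9 are named, per the submitters' processing notes, but 92.1% of gene IDs found in GENCODE vM21, and 32 of the 34 mitotic genes, had the same position on GRCm38, which is used here. The authors deposited whole-number counts per gene for 2 libraries per table, per the file headers. They also deposited CPM, a fold ratio, its log2, and p-values whose test is not given in the sources used here.

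Counts of the 19500 genes in both tables were filtered (filterByExpr, minimum count 10), scaled by TMM and tested with edgeR 4.0.16 in R 4.3.3, with genotype as the only term and Benjamini-Hochberg adjustment over 15933 genes at 0.05. Intervals of 95% come from the same fit. Differences within a table are log2 CPM with a prior count of 2. The test was tried on simulated counts. The 34 genes and the lists were chosen with earlier results of these data known. The values given by name cover all 34 genes, and of the other mitosis genes the 2 with the smallest p per group, with Foxm1, Mybl2 and Mad2l1. Depth was 16219310 to 17704698 counts per library, and counting error is given beside the results.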

Additional observations from a re-analysis of the deposited data

How the results depend on the processing

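Tried in turn were a block for the replicate number, each library left out, DESeq2 size factors, library totals alone, a low-count filter left off or raised to a mean of 50 counts, genes of either table, DESeq2 1.42.0, limma-voom of limma 3.58.1 and, added after the data were seen, removal of the trend on exon length. In these 13 alternatives 0 of the 34 genes and 0 of the other mitosis genes passed an adjusted p of 0.05. The smallest adjusted p of any of the 34 was 0.36. The labels do not say that same-numbered samples share a litter or day, and deviations of same-numbered samples from their group means had a correlation of 0.28 over all genes. With the replicate block 0 of the 34 genes passed and their median was 0.11, while the calls over all genes went from 1 to 42. At an unadjusted p under 0.05 the block gave 8 of the 34 genes (Ccnb1, Bub1b, Cenpf, Ect2, Kif20b, Cenpe, Mki67 and Cdk1, all higher in Wt1_CKO) in place of 1 and 7 of the other mitosis genes in place of 0, and 7.19% of all genes in place of 1.56%. For the 34 genes the counts at an unadjusted p under 0.05 were 3 with library totals alone and 2 with the length trend removed. The shares of all genes there were 1.56% and 1.48%. DESeq2 called 5 over all genes, and leaving out each library in turn gave calls over all genes of 3 to 73.

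The direction was kept by 20 of the 34 genes in all alternatives and turned in 14, in each case only when a library was left out. The lone sample of a group is then assumed to vary like the others. With a library left out, the median fold change ran from 0.068 to 0.17 for the 34 genes and from -0.00087 to 0.10 for the other mitosis genes. The same fits gave log2 fold changes from -0.12 to 0.13 for Aurkb, -0.22 to 0.10 for Birc5, -0.0037 to 0.20 for Bub1, -0.23 to 0.063 for Ccnb2, -0.046 to 0.21 for Cdc20, -0.075 to 0.24 for Cdc25c and -0.13 to 0.17 for Cdca8. They gave -0.22 to 0.28 for Cenpa, -0.055 to 0.35 for Kif11, -0.00019 to 0.49 for Kif20b, -0.029 to 0.13 for Nuf2, -0.22 to 0.093 for Plk1, -0.010 to 0.061 for Tpx2 and -0.13 to 0.0083 for Ube2c. The cause was not tested. With the authors' adjusted p under 0.05 in place of their marks, the number of the 34 went from 0 to 19 in the first table and 21 in the second. Of all listed genes 23.3% and 19.2% had such a p. With 2 samples per group, differences near the median of 0.11 were not detectable, and counts of both tables cannot be formed when a library is left out.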
